A study of Rattus norvegicus with 6 samples.

Results

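The mitochondrial ribosomal proteins are the nuclear-encoded proteins of the ribosome that works inside mitochondria. Members were taken by symbol, as every gene of the deposited count table named Mrpl or Mrps followed by a number and at most 1 letter, which gave 74 of 20653 genes. The name alone assigned 44 of them to the large subunit (Mrpl) and 30 to the small subunit (Mrps). RefSeq holds Mrps36 under another symbol, and its place in this ribosome was not checked. The pattern also took in Mrps21l, a Mrps21-like gene, which had between 0 and 5 reads per library and was too low to test. The other 73 members were all tested, with 139 to 3267 reads per gene and library.

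RNA was sequenced from mesenchymal stem cells of rat nasal mucosa, with 3 libraries of EMSC and 3 of NPS-EMSC, as the labels call the cells. The labels describe both groups as primary cells of SD genotype, and the series title says that the stem cells overexpress neuropeptide S, a short signalling peptide. No label states an age, a vector, whether EMSC received a control vector, or whether the libraries of a group came from separate cultures or animals. The p-values therefore measure only the spread between these libraries, which may be technical, and effects of gene delivery cannot be told apart from those of the peptide.

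Mammalian mitochondria translate a small set of messages from their own DNA, all of them for membrane proteins of the respiratory chain and ATP synthase. Their ribosome descends from that of bacteria, but it has lost much of its ribosomal RNA and gained many proteins found in no bacterial ribosome. Every one of its proteins is made in the cytosol from a nuclear gene and imported. Promoters of nuclear genes for mitochondrial proteins often carry sites for the transcription factors NRF1, GABP (an ETS factor) and YY1.

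The libraries held 39082245 to 40261205 counted reads, and correlations of log2 CPM (CPM being counts scaled to the library total) were 0.989 to 0.990 within groups and 0.935 to 0.943 between groups. Nps, the neuropeptide S gene, had 0, 0 and 10 reads in the EMSC libraries and 93566, 77014 and 85916 in the NPS-EMSC libraries, as the labels say. All 11 mesenchymal markers were called, 7 as higher and 4 as lower, among them Nt5e (4.45-fold) and Thy1 (2.92-fold) higher and Pdgfra (1.93-fold) and Nes (2.0-fold) lower in NPS-EMSC, 4 genes chosen after their values were seen. Their sum, carried mostly by Col1a1, Col1a2 and Vim, was 21869 to 24042 CPM in the EMSC libraries and 22272 to 23427 CPM in NPS-EMSC. The 9 leukocyte markers summed to 55.9 to 69.8 CPM in EMSC against 7.73 to 9.77 CPM in NPS-EMSC, and all 7 that were tested were lower. The 6 olfactory ensheathing and Schwann cell markers summed to 29.5 to 32.1 CPM in the EMSC libraries and 6.24 to 7.29 CPM in NPS-EMSC, with all 3 tested members lower, although the defining factor Sox10 was near 0 in both groups (means of 0.0577 and 0.0516 CPM). The 7 epithelial markers with a row in the table summed to 4.18 to 4.96 CPM in EMSC against 10.3 to 13.2 CPM in NPS-EMSC, with Krt18 and Krt8 higher and the group means of Epcam and Cdh1 at no more than 0.0498 CPM. The 4 endothelial markers stayed under 2.71 CPM in sum. The part of these other cell types in the results below was not tested, and in bulk samples fewer cells of a type and less RNA per cell cannot be told apart.

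Promoter sequences were looked up first, because promoters of such genes often carry sites for the factors named above. The direction of the members' change was known before this search, and a link between motifs and change was not tested. The RefSeq promoter table of rat assembly GRCr8 held a window of 300 bases, from 250 before the start to 50 after it, for 59 of the 74 members, of which 58 matched by symbol and Mrps36 by synonym. The YY1 motif searched on both strands is the run of 10 capitals in the stretches below, and it stood in 7 of these 59 windows (11.9%). It stood in 0.980% of all 33469 windows of the table and in 2.16% of the 12704 windows of tested genes. In all 7 members it ran in the direction of the gene and followed the start with 0 to 30 bases between, as the stretches of 30 bases show. The motif contains ATG, and no annotation of the start codon was used here, so letters of a coding start and of a factor site cannot be separated.
Mrpl37 (chr5:127074942-127074971, minus strand): tgcccgggcaAAGATGGCGGcgtccaggta
Mrpl46 (chr1:142116987-142117016, minus strand): ggaagacggaAAGATGGCGGcgcccatagg
Mrpl50 (chr5:68668042-68668071, minus strand): gagcttgtcgAAGATGGCGGcgctgtgtgt
Mrps10 (chr9:21122404-21122433, minus strand): tcagggcaccAAGATGGCGGcgcgcgcagc
Mrps18a (chr9:22367361-22367390, minus strand): gtgtgttcccAAGATGGCGGccctcagggc
Mrps27 (chr2:32474223-32474252, plus strand): ggtacgctccAAGATGGCGGcccccatggt
Mrps30 (chr2:52195867-52195896, minus strand): gcggaggacaAAGATGGCGGctgccaggta

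The ETS letters CCGGAAG, bound by GABP, were the most frequent of the motifs searched and stood on either strand in 20 of 59 member windows (33.9%). They stood in 8.75% of all windows and 15.9% of the windows of tested genes. Stretches of 4 members that differed between the groups show how the motif, in capitals, is placed. Mrpl57 and Mrps18c, which were higher in NPS-EMSC, carried it 22 and 132 bases before the start. Mrpl52 and Mrps27, which were lower, carried it 42 and 39 bases before the start, Mrpl52 with a second match 1 base after the start, and in Mrps18c, Mrpl52 and Mrps27 it reads CTTCCGG because it lies on the opposite strand.
Mrpl57 (chr15:36086403-36086456, plus strand): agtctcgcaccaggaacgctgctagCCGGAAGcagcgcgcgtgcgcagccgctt
Mrps18c (chr14:9123014-9123070, minus strand): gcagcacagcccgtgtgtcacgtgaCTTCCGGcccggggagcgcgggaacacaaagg
Mrpl52 (chr15:31852862-31852918, plus strand): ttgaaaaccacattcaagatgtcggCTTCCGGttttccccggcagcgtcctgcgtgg
Mrps27 (chr2:32474133-32474189, plus strand): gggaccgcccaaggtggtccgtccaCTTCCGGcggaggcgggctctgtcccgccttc

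The NRF1 motif, the run of 10 capitals in the stretches below, reads the same on both strands and stood in 4 of 59 member windows (6.78%), in 0.852% of all windows and in 1.68% of the windows of tested genes. Its first or its last 8 letters, which the full motif includes, stood in 5 member windows (8.47%) and in 4.55% of the windows of tested genes. All 4 full matches lay before the start, and they are printed because they include Mrpl17, the member with the highest level.
Mrpl17 (chr1:169575720-169575779, minus strand): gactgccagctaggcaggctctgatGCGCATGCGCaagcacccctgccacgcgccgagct
Mrpl32 (chr17:55260564-55260623, plus strand): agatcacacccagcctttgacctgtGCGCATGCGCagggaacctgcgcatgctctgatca
Mrpl44 (chr9:88554893-88554952, plus strand): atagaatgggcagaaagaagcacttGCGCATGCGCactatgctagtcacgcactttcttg
Mrps18b (chr20:2842961-2843005, plus strand): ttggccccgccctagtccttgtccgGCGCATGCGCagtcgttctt

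A motif match is a description of letters and shows no binding. Base composition differed, with a median of 56.0% G and C in member windows and 51.7% in all windows. It was not measured for the windows of tested genes alone, and its part in the motif shares was not tested. Among the members with a window, the ETS letters stood in 10 of the 29 called higher, 8 of the 27 not called and 2 of the 3 called lower. The YY1 letters stood in 5 of the 29 called higher, 1 of the 27 not called and 1 of the 3 called lower. The full NRF1 letters stood in 1 of the 29 called higher and 3 of the 27 not called.

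Levels of different genes were compared with the deposited FPKM values, which are counts scaled to gene length and library total. The 73 tested members lay within a 16.0-fold range, from a mean of 3.97 to 63.6 FPKM over the 6 libraries, with a median of 17.4. Between 10 and 20 FPKM lay 31 of them, while 29 were above and 13 below. Mrpl17 had the highest level, with 69.0, 62.5 and 64.0 FPKM in EMSC and 59.3, 66.0 and 60.8 FPKM in NPS-EMSC. Every Mrpl17 value was above every value of Mrpl13, which came next with 45.4 to 49.3 FPKM in EMSC and 48.7 to 58.8 in NPS-EMSC. Mrpl20 followed with a mean of 42.2 FPKM, and its range of 41.0 to 45.1 FPKM over all libraries overlapped that of the highest small subunit gene, Mrps6 (35.9 to 47.6 FPKM), so their order is within the spread. Mrps7 and Mrps25, at 35.5 and 34.0 FPKM on average, also overlapped each other. Their products are a protein that in bacteria starts assembly of the small subunit head (Mrps7) and a protein of the small subunit without a bacterial name (Mrps25).

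At the other end of the scale stood Mrpl47 and Mrpl40 in the large subunit, with means of 3.97 and 4.34 FPKM, and Mrps10 and Mrps28 in the small subunit, with 4.53 and 5.78 FPKM. Proteins of a ribosome are present in equal numbers, except the stalk protein Mrpl12, which is present in several copies. The Mrpl12 transcript had a mean of 16.4 FPKM, near the middle of the members. FPKM and the gene length that the deposited values imply were inversely related across the 73 genes (Pearson r = -0.59, Spearman rho = -0.62, a description across genes, which are not independent, and length is itself the divisor of FPKM). Mrpl47, with the lowest mean FPKM, had an implied length of 2941 bases.

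**Figure D1:**
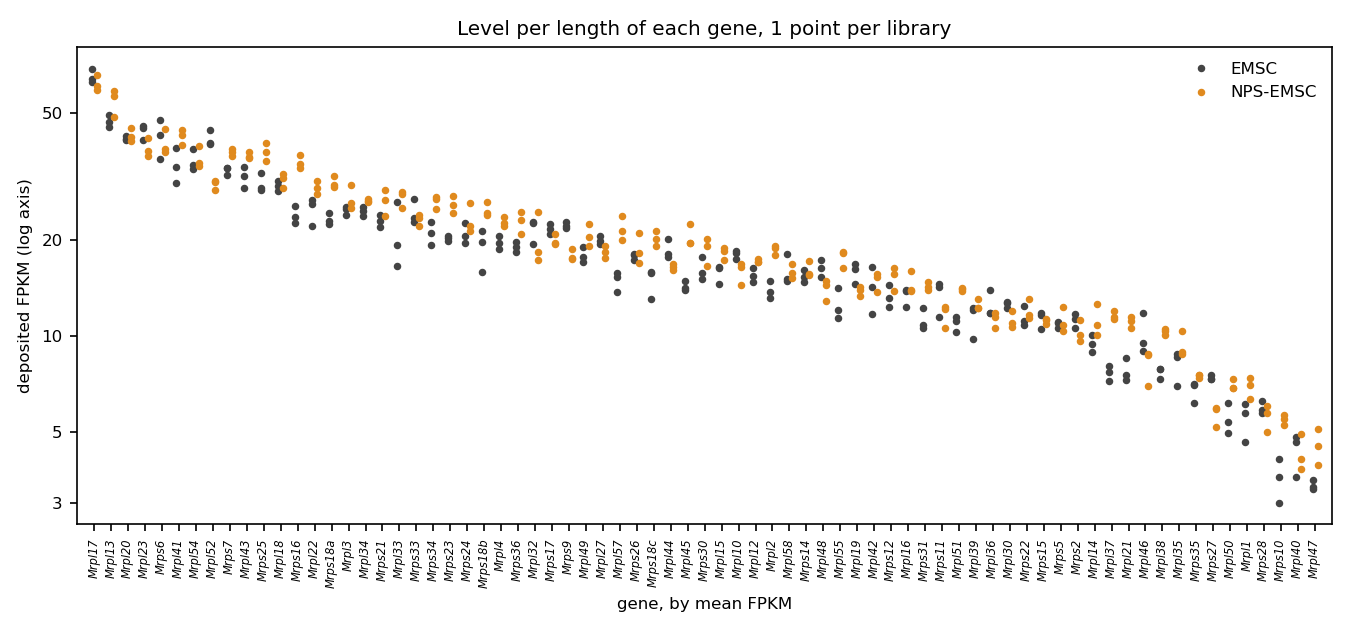
Deposited FPKM (log axis) of the 73 tested mitochondrial ribosomal protein genes, ordered by their mean, with 1 point per library (EMSC dark, NPS-EMSC orange). Mrpl17 stands above all others at 59.3 to 69.0 FPKM, and Mrpl47 and Mrpl40 have the lowest means (3.97 and 4.34 FPKM).

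The comparison of NPS-EMSC with EMSC asks how transcripts differ once the cells overexpress neuropeptide S. Most mitochondrial ribosomal protein genes that differed were higher in NPS-EMSC. In edgeR's quasi-likelihood test, with Benjamini-Hochberg adjustment over all 14505 genes tested and a threshold of 0.05, 36 of 73 members were higher, 3 were lower (Mrpl52, Mrps27 and Mrps9) and 34 did not pass. Among all genes tested, 59.3% were called in either direction, 29.7% as higher and 29.5% as lower, so the members were called about as often as other genes (53.4%) but seldom as lower (49.3% higher, 4.11% lower). The median log2 fold change was 0.19 over the members and -0.0048 over all genes tested. With plain library totals in place of TMM factors, an alternative chosen after seeing the data, the medians were 0.15 and -0.0486, and 32 members were higher and 5 lower. On log2(FPKM + 1) values 33 were higher and 9 lower, so the share of higher calls went from 92.3% to 78.6%.

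The differences were small and did not reach 2-fold in any of the 73 tested members, whereas 14.8% of all genes tested were called with a change over 2-fold. Called increases ran from 1.12-fold to 1.57-fold and the 3 decreases from 1.21-fold to 1.35-fold. Values of the 2 groups did not overlap in 48 of 73 members (65.8%), of which 41 were higher and 7 lower in NPS-EMSC. The same held for 64.7% of all 14505 genes tested, with 4704 higher and 4684 lower. When the test asked for a change beyond 1.2-fold, 14 members were higher and 1 lower (20.5% of members, against 36% of all genes tested, 17.1% as higher and 19% as lower). Of the 34 members that did not pass the main test, 17 had a fitted change above 0 and 17 below. Summed over all 74 genes, the level was 1517 to 1542 CPM in the EMSC libraries and 1692 to 1758 CPM in the NPS-EMSC libraries, a ratio of 1.12 between the means. The members' share of all counted reads was 0.155% ± 0.00279 (SD, n = 3) in EMSC and 0.169% ± 0.00438 (SD, n = 3) in NPS-EMSC, or a ratio of 1.09 with plain totals.

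**Figure D2:**
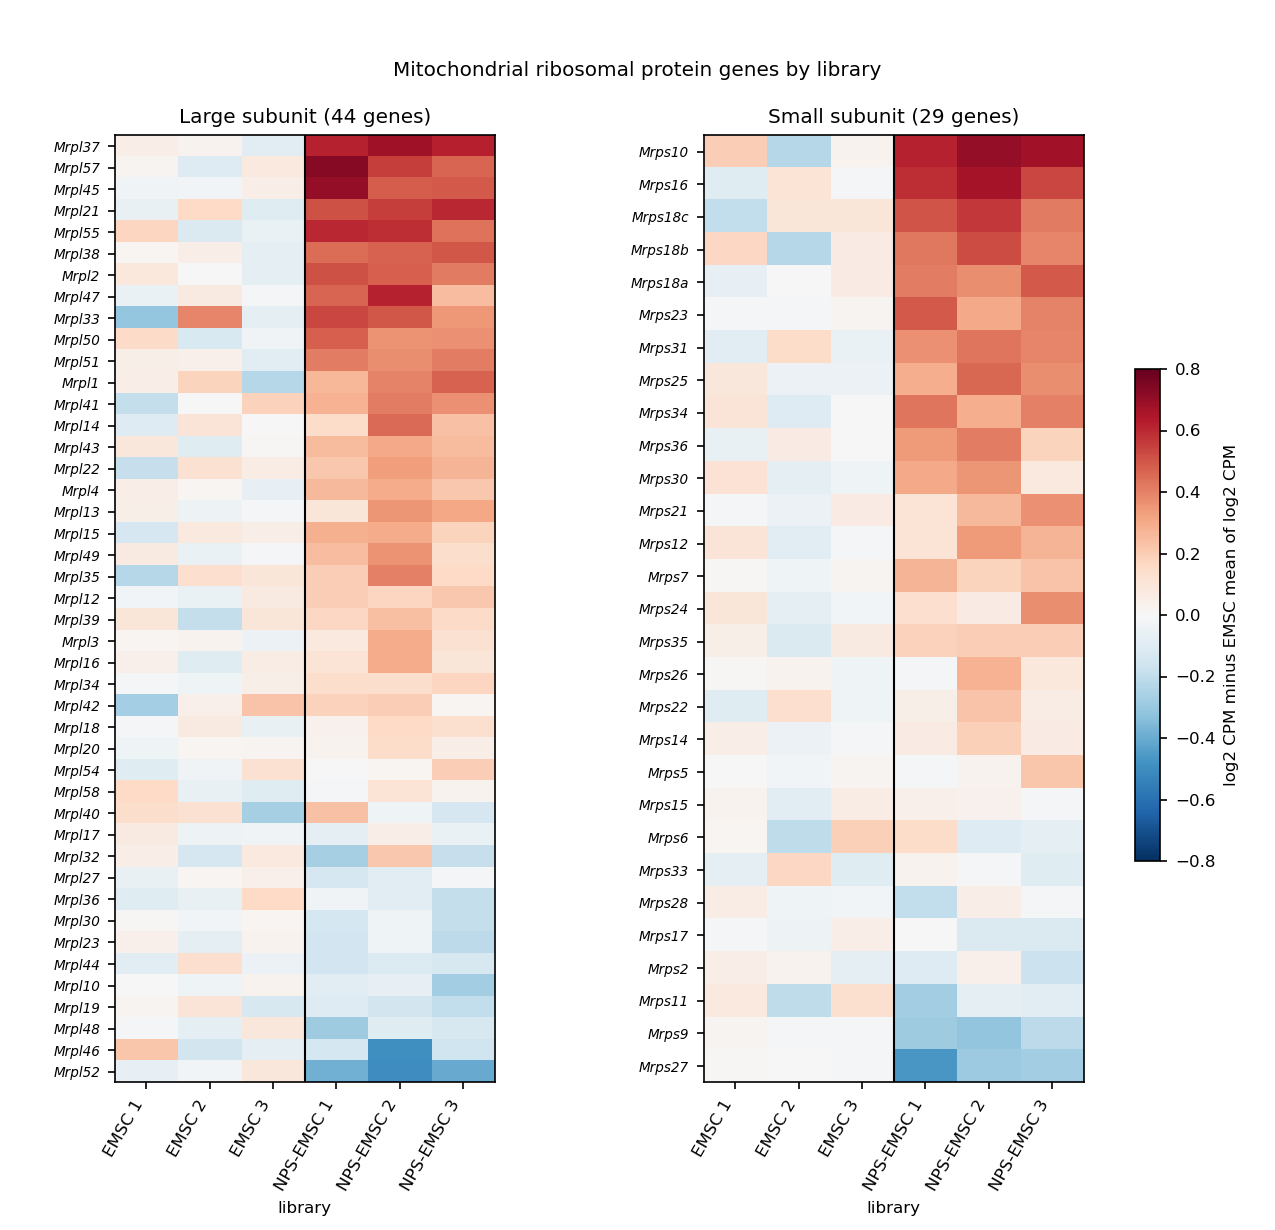
Level of each tested gene in each library, as log2 CPM minus the mean of log2 CPM over the 3 EMSC libraries (colour), with large subunit genes on the left and small subunit genes on the right, ordered by fitted change. Red fills most of the 3 NPS-EMSC columns from the top down to about the middle of both panels, and Mrpl52, Mrps9 and Mrps27 at the bottom are blue in all 3.

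Among the genes named for the large subunit, 23 of 44 rose (52.3%), 1 fell (2.27%) and 20 did not pass, with a median log2 fold change of 0.19. Of all genes tested, 29.7% rose and 29.5% fell. Mrpl37, a protein found only in mitochondrial ribosomes, had 28.7, 28.2 and 26.0 CPM in the EMSC libraries and 42.2, 44.1 and 42.5 CPM in NPS-EMSC. The groups lay far apart compared with their spread, and it had the smallest p of all members (log2 fold change 0.64, SE 0.07, adjusted p = 1.51e-08). Its window holds the YY1 letters printed above. Mrpl45, which lines the tunnel exit and holds the ribosome at the inner membrane, rose from 30.6, 30.7 and 32.3 CPM to 50.7, 43.7 and 43.9 CPM (log2 fold change 0.56, SE 0.07, adjusted p = 1.91e-07). NPS-EMSC replicate 1 was the highest library, and NPS-EMSC replicates 2 and 3 were still above every EMSC library.

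Mrpl57, another mitochondria-specific protein, had 10.1, 9.20 and 10.4 CPM in EMSC against 16.3, 14.5 and 13.7 CPM in NPS-EMSC (log2 fold change 0.58, SE 0.11, adjusted p = 9.38e-05). The bacterial-type protein gene Mrpl21 rose from 10.1, 11.7 and 9.79 CPM to 14.9, 15.4 and 15.9 CPM (log2 fold change 0.55, SE 0.11, adjusted p = 1.28e-04). For Mrpl55 the values were 13.5, 11.1 and 11.6 CPM in EMSC against 18.3, 18.1 and 16.3 CPM in NPS-EMSC (log2 fold change 0.54, SE 0.11, adjusted p = 1.08e-04). In each of these 3 genes the lowest NPS-EMSC library exceeded the highest EMSC library, and each kept its call in all 20 alternatives.

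The gene that fell in the large subunit was Mrpl52, a protein without a bacterial counterpart. It had 44.2, 45.6 and 49.4 CPM in the EMSC libraries and 35.5, 32.9 and 35.0 CPM in NPS-EMSC (log2 fold change -0.43, SE 0.07, adjusted p = 4.94e-06). The groups did not overlap, and it was also the only member called lower beyond 1.2-fold.

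Of the 3 large subunit genes with the highest levels, only Mrpl13 passed the test. Mrpl17 had 79.3, 73.4 and 74.3 CPM in EMSC against 71.5, 78.6 and 72.8 CPM in NPS-EMSC, so the groups overlapped (log2 fold change -0.03, SE 0.05, adjusted p = 0.689). Mrpl13 rose from 46.7, 43.9 and 44.8 CPM to 48.3, 57.6 and 55.8 CPM (log2 fold change 0.26, SE 0.07, adjusted p = 0.00178), with NPS-EMSC replicate 1 close to the EMSC libraries. Mrpl20, a bacterial-type protein, did not pass (log2 fold change 0.08, SE 0.07, adjusted p = 0.355). Of the large subunit genes with the lowest levels, Mrpl47 rose from 9.52, 10.4 and 9.77 CPM to 13.7, 15.2 and 11.8 CPM (log2 fold change 0.45, SE 0.12, adjusted p = 0.00217). Mrpl40 did not pass and its groups overlapped (8.54 to 11.3 CPM in EMSC, 9.37 to 12.1 CPM in NPS-EMSC, adjusted p = 0.914). Across the 73 tested genes, the change showed little relation to the level (Pearson r = -0.09, Spearman rho = -0.03 between log2 fold change and log2 mean FPKM, given as a description across genes).

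Among the large subunit genes with a role beyond structure, Mrpl12 encodes the stalk protein that recruits translation factors. It had 23.6, 23.0 and 25.1 CPM in the EMSC libraries and 27.4, 26.9 and 27.7 CPM in NPS-EMSC, without overlap (log2 fold change 0.19, SE 0.08, adjusted p = 0.0345). This call was near the threshold and was lost when any single library other than EMSC replicate 3 was left out, with log2 fold changes of 0.17 to 0.21 in those fits. Mrpl58 encodes a peptidyl-tRNA hydrolase built into the ribosome, which frees stalled chains. Its values overlapped, at 12.8 to 15.3 CPM in EMSC against 13.6 to 14.8 CPM in NPS-EMSC (log2 fold change 0.04, SE 0.11, adjusted p = 0.779).

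**Figure D3:**
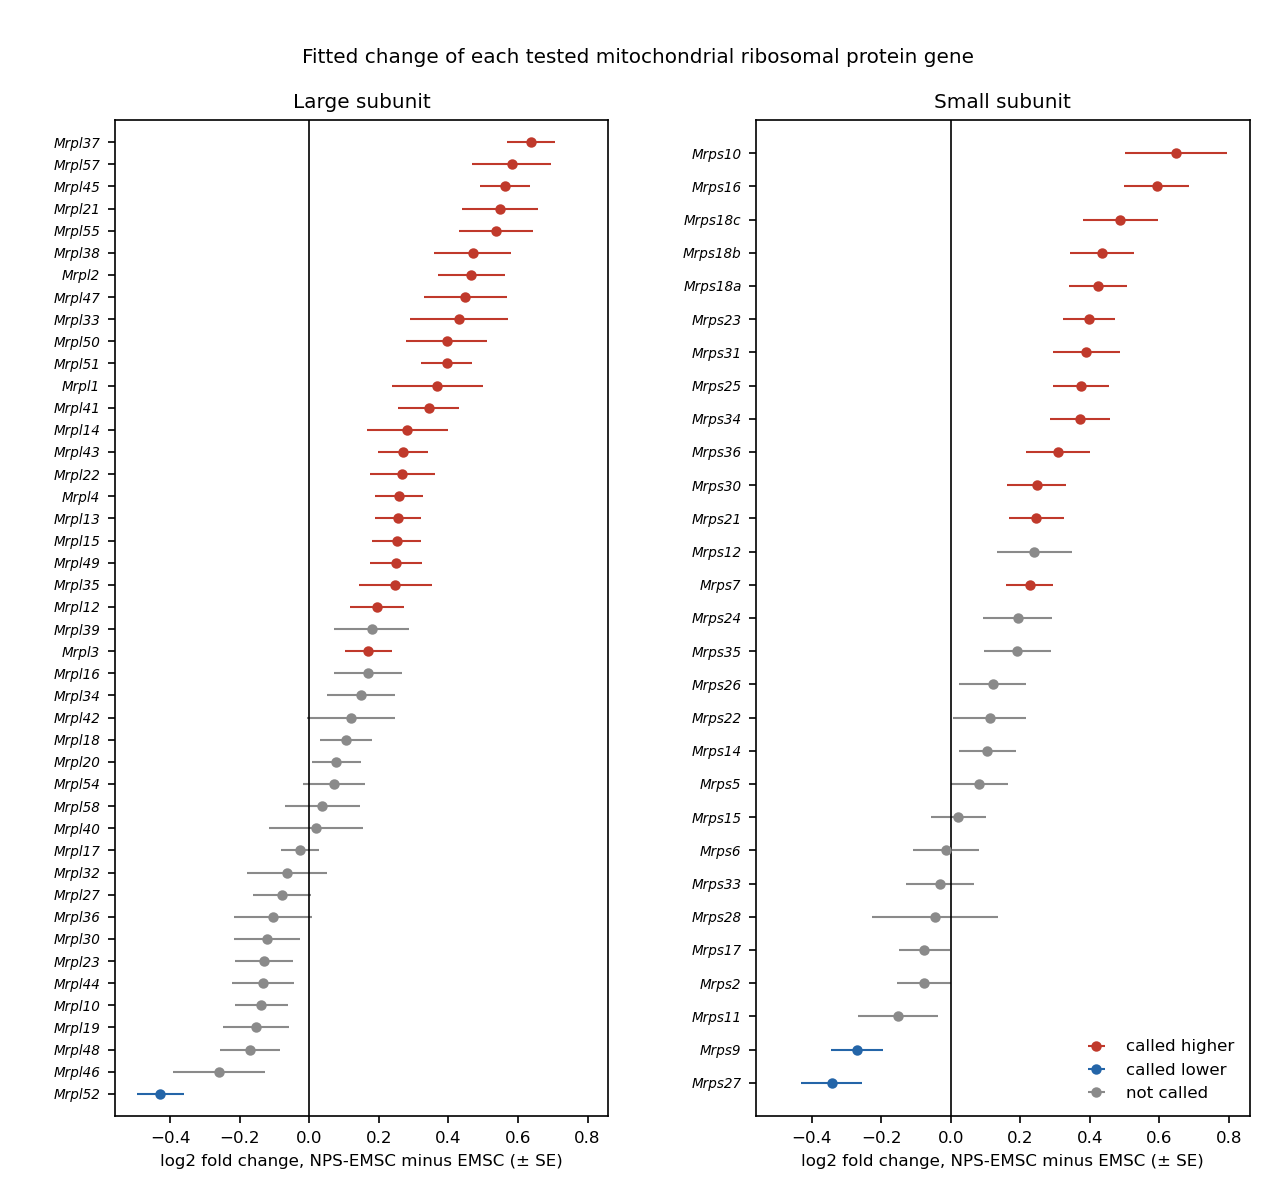
Fitted log2 fold change (NPS-EMSC minus EMSC) with its SE for each tested gene of the large (left) and small (right) subunit, coloured by call. Called increases run up to 0.64 in the large and 0.65 in the small subunit, and the 3 called decreases lie between -0.43 and -0.27.

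Among the genes named for the small subunit, 13 of 29 tested rose (44.8%), 2 fell (6.90%) and 14 did not pass. Of all genes tested, 29.7% rose and 29.5% fell. The median log2 fold change of the small subunit names was 0.19, the same as for the large subunit names to 2 decimals. The genes that rose include Mrps36, whose place in this ribosome was not checked. Mrps10, a bacterial-type protein, had the largest increase of all members. It had 6.34, 4.73 and 5.64 CPM in the EMSC libraries and 8.46, 9.0 and 8.81 CPM in NPS-EMSC (log2 fold change 0.65, SE 0.15, adjusted p = 4.72e-04), with a wider error than Mrpl37. Mrps16, whose loss in people causes a defect of several respiratory chain complexes, rose from 13.4, 15.4 and 14.2 CPM to 21.5, 22.6 and 20.7 CPM (log2 fold change 0.59, SE 0.09, adjusted p = 6.18e-06). In both genes all 3 NPS-EMSC libraries were above all 3 EMSC libraries.

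The 3 Mrps18 genes are copies of 1 bacterial ribosomal protein gene, and they rose together. Their products do not share a place: those of Mrps18b and Mrps18c sit in the small subunit and that of Mrps18a in the large one. Mrps18c rose from 10.6, 13.0 and 12.9 CPM to 17.1, 17.9 and 16.2 CPM (log2 fold change 0.49, SE 0.11, adjusted p = 3.53e-04). Mrps18b rose from 22.7, 17.3 and 21.2 CPM to 27.1, 29.1 and 26.6 CPM (log2 fold change 0.44, SE 0.09, adjusted p = 2.53e-04). Mrps18a rose from 18.1, 18.9 and 19.7 CPM to 25, 24.5 and 26.5 CPM (log2 fold change 0.42, SE 0.08, adjusted p = 1.09e-04). None of the 3 had overlapping groups, and their fold changes lay within 1 SE of each other. The promoter windows of all 3 hold the ETS letters, as do those of 8 of the 27 members with a window that were not called. That of Mrps18a also holds the YY1 motif and that of Mrps18b the full NRF1 motif, as printed above.

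Mrps30 is another gene named for the small subunit whose protein is found in the large one. It had 26.5, 23.1 and 23.8 CPM in EMSC against 30.1, 31.3 and 25.8 CPM in NPS-EMSC (log2 fold change 0.25, SE 0.09, adjusted p = 0.0150). EMSC replicate 1 exceeded NPS-EMSC replicate 3, so the groups overlapped. The call was lost without EMSC replicate 2 or 3 and without NPS-EMSC replicate 1 or 2, with log2 fold changes of 0.19 to 0.22.

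The genes that fell in the small subunit were Mrps27 and Mrps9. Mrps27 encodes a protein with the helical repeats typical of RNA-binding proteins of organelles. It had 22.2, 22.1 and 21.8 CPM in the EMSC libraries and 15.9, 18.0 and 18.2 CPM in NPS-EMSC (log2 fold change -0.34, SE 0.09, adjusted p = 0.00175). Mrps9, a bacterial-type protein, fell from 31.3, 30.6 and 30.7 CPM to 25.3, 24.8 and 26.6 CPM (adjusted p = 0.00293, log2 fold change -0.27, SE 0.07). The EMSC values of both genes were close together and lay wholly above those of NPS-EMSC.

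The small subunit genes with the highest levels were mixed. Mrps25 rose from 23.3, 21.2 and 21.2 CPM to 26.8, 30.1 and 28.3 CPM (log2 fold change 0.37, SE 0.08, adjusted p = 3.15e-04). Mrps7 rose from 32.9, 31.9 and 33.2 CPM to 39.5, 37.0 and 38.3 CPM (log2 fold change 0.23, SE 0.07, adjusted p = 0.00534). Mrps6 varied within the groups and did not pass, with 23.3 to 30.6 CPM in EMSC against 25 to 29.7 CPM in NPS-EMSC (adjusted p = 0.912). Mrps28, the least abundant in CPM, had 4.06 to 4.32 CPM in the EMSC libraries and 3.63 to 4.32 CPM in NPS-EMSC (log2 fold change -0.04, SE 0.18, adjusted p = 0.850), the widest error of the members.

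Numbering gives a further split, because low numbers were given to proteins named after a bacterial counterpart and high numbers to proteins added in mitochondria (from Mrpl37 and from Mrps22 upward). It goes by number alone, and Mrpl47 and Mrps24 are among its exceptions, which were not listed in full. Of the 40 tested genes with bacterial numbers, 19 rose (47.5%) and 1 fell (2.5%), with a median log2 fold change of 0.17. Of the 33 tested genes with mitochondrial numbers, 17 rose (51.5%) and 2 fell (6.06%), with a median of 0.25. Over all genes tested, the shares were 29.7% and 29.5%, and the bacterial and mitochondrial numbers lay near each other. No test of the difference between these 2 kinds of number was made.

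Neighbours in the genome were examined because many of these genes share a promoter region with a gene on the opposite strand. The search covered only genes with a promoter window in the RefSeq table, which 59 of the 74 members had. Of these members, 19 had a gene starting within 1000 bases on the other strand, in 18 pairs. In 1 pair (Mrpl46 with Mrps11) both genes were members, and both did not pass. Members without a window were not searched for neighbours. In the other 17 pairs, 11 members rose, and of their partners 4 rose, 3 fell and 4 did not pass. Over all 17 pairs, 5 partners were higher and 5 lower, a share near the 29.7% and 29.5% of all genes tested, so the pairs that follow are descriptions of single loci. The pairs and overlaps given here were chosen after their values were seen. Mrpl47 and the respiratory complex I gene Ndufb5 rose alike (log2 fold change 0.45, SE 0.12, and 0.45, SE 0.06). Mrpl2 rose with the kinesin light chain gene Klc4 (0.47 and 0.41 on the log2 scale), Mrpl41 with Pnpla7 (0.34 and 0.30) and Mrps7 with Gga3 (0.23 and 0.31).

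Pairs that went apart included 2 with a gene of chromosome segregation. Mrpl51 rose by 0.39 (SE 0.07) on the log2 scale while its neighbour Ncapd2, a condensin subunit gene, had a log2 fold change of -0.65 (SE 0.09, adjusted p = 4.81e-07). Mrpl57 rose by 0.58 while Ska3, a kinetochore gene, had a log2 fold change of -0.52 (SE 0.18, adjusted p = 0.0177). The third was Mrps31 with the unnamed locus LOC120097532 (log2 fold changes 0.39 and -1.11). In RefSeq the spans of Mrpl47 and Ndufb5, of Mrpl57 and Ska3, and of Mrps31 and LOC120097532 overlap, as do those of 16 members in all with another gene of the count table, among them Mrpl37 with Ssbp3, Mrpl55 with Guk1 and Mrpl43 with the helicase gene Twnk. No source used here gives the strand setting of the authors' counting, so reads of overlapping genes may not be separable. Mrps21 (25.6 ± 1.01 CPM in the EMSC libraries and 30.4 ± 2.69 CPM in NPS-EMSC, SD, n = 3, adjusted p = 0.0103) may share reads with Mrps21l.

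The same ribosome also holds proteins whose genes have other symbols, and 5 of those had a row. Chchd1 and the large subunit gene Gadd45gip1 rose (log2 fold changes 0.39 and 0.21), while Dap3, the GTP-binding protein of the small subunit, and Aurkaip1 did not pass (0.14 and 0.13). Ptcd3, which like Mrps27 has the repeats of organelle RNA-binding proteins, fell from 39.3, 46.3 and 42.1 CPM to 28.1, 33.0 and 31.5 CPM (log2 fold change -0.46, SE 0.08, adjusted p = 1.04e-05). Without EMSC replicate 3 or without any NPS-EMSC library, 1 of these 5 genes was called higher in place of 2.

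Genes that build or serve the mitochondrial ribosome did not all go the same way. Of 26 genes of assembly and ribosomal RNA modification, 10 rose (38.5%) and 1 fell (3.85%), against 29.7% and 29.5% of all genes tested. The median log2 fold change of this list was 0.13 (0.08 to 0.17 over the alternatives). Rpusd3, of the pseudouridine synthase family, rose from 7.80, 7.64 and 8.59 CPM to 18.1, 14.7 and 16.8 CPM (log2 fold change 1.04, SE 0.12, adjusted p = 2.56e-08). Ndufab1, the acyl carrier protein, Ngrn, which stabilises the large ribosomal RNA, and the pseudouridine synthase gene Trub2 rose by 0.53, 0.51 and 0.31 on the log2 scale. The gene that fell was Tfb1m, the methyltransferase of the small ribosomal RNA (log2 fold change -0.28, SE 0.10), which was named because it went against the others. Leaving out EMSC replicate 3 gave 0 lower genes in this list, and leaving out EMSC replicate 1, EMSC replicate 2 or NPS-EMSC replicate 3 gave 2.

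Of 13 translation factor genes, 1 rose (7.69%) and 3 fell (23.1%), against 29.7% and 29.5% of all genes tested. The median of these factor genes was -0.13. The release factor gene Mtrf1l fell from 10.8, 8.06 and 9.22 CPM to 5.20, 4.96 and 6.24 CPM (adjusted p = 9.67e-05, log2 fold change -0.77, SE 0.15). The recycling factor gene Mrrf and the initiation factor gene Mtif3 had log2 fold changes of -0.27 and -0.30, and Mtfmt, which formylates the initiator tRNA, rose by 0.40. Without EMSC replicate 1 or NPS-EMSC replicate 1, 2 of these genes were higher in place of 1. Of 16 mitochondrial aminoacyl-tRNA synthetase genes, 2 rose (Vars2 and Fars2, 0.47 and 0.46) and 2 fell (Cars2 and Nars2, -0.56 and -0.47). That was 12.5% in each direction, against 29.7% and 29.5% of all genes tested. Without EMSC replicate 3, 1 of these synthetase genes was lower in place of 2. The median log2 fold change of the synthetase genes was 0.08, and over the alternatives it ran from 0.03 to 0.12.

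Among 23 genes of mitochondrial DNA copying, transcription and RNA handling, 6 rose (26.1%) and 3 fell (13.0%). Of all genes tested, 29.7% rose and 29.5% fell, so the share of increases was near that of other genes. The median of the 23 genes was -0.04, and its sign changed over the alternatives (-0.08 to 0.07). The RNA polymerase gene Polrmt, chosen after its values were seen, rose from 12.1, 11.1 and 10.9 CPM to 15.2, 17.7 and 15.4 CPM (adjusted p = 3.00e-04, log2 fold change 0.50, SE 0.11). The polynucleotide phosphorylase gene Pnpt1, the RNA granule gene Grsf1 and the helicase gene Twnk rose by 0.54, 0.27 and 0.45, and Hsd17b10, a subunit of mitochondrial RNase P, had a log2 fold change of -0.31 (SE 0.06).

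The messages that this ribosome translates were measured as well. Of the 13 genes encoded by mitochondrial DNA, 3 rose (23.1%), 2 fell (15.4%) and 8 did not pass. Over all genes tested, 29.7% rose and 29.5% fell. Reads of the 13 genes made up 3.47% to 3.62% of a library in EMSC and 4.33% to 4.43% in NPS-EMSC. COX1, a core subunit of cytochrome oxidase, rose from 14578, 13973 and 14357 CPM to 22919, 22293 and 22924 CPM (log2 fold change 0.67, SE 0.05, adjusted p = 1.69e-11), and most of the increase in the sum was in this gene. CYTB and, chosen after its values were seen, COX3 rose by 0.29 and 0.24 on the log2 scale, whereas ND1 and COX2 had log2 fold changes of -0.29 and -0.28. These genes lie on 2 polycistronic transcripts, so unequal change among them is a measured fact here without a tested cause.

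Of 13 transcriptional regulators of mitochondrial genes, 5 rose (38.5%) and 1 fell (7.69%), against 29.7% and 29.5% of all genes tested. The median log2 fold change of the regulators was 0.14 and ran from 0.03 to 0.18 over the alternatives. Esrra, an orphan nuclear receptor, rose from 25.6, 25 and 23.6 CPM to 45.2, 43.0 and 42.3 CPM (log2 fold change 0.81, SE 0.07, adjusted p = 2.17e-10). Ppargc1a, its coactivator, rose by 0.67 (SE 0.12) and Myc by 0.47 (SE 0.08). Gabpa, the DNA-binding subunit of GABP, fell from 60.7, 62.6 and 63.5 CPM to 51.0, 49.9 and 51.6 CPM (log2 fold change -0.29, SE 0.06). Without EMSC replicate 1, 2 of the 13 regulators were lower in place of 1. Named for the motifs printed above, Yy1 rose by 0.23 (SE 0.06) and Nrf1 did not pass (-0.04, SE 0.08, adjusted p = 0.688). Whether any of these factors acts on the mitochondrial ribosomal protein genes was not tested.

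**Figure D4:**
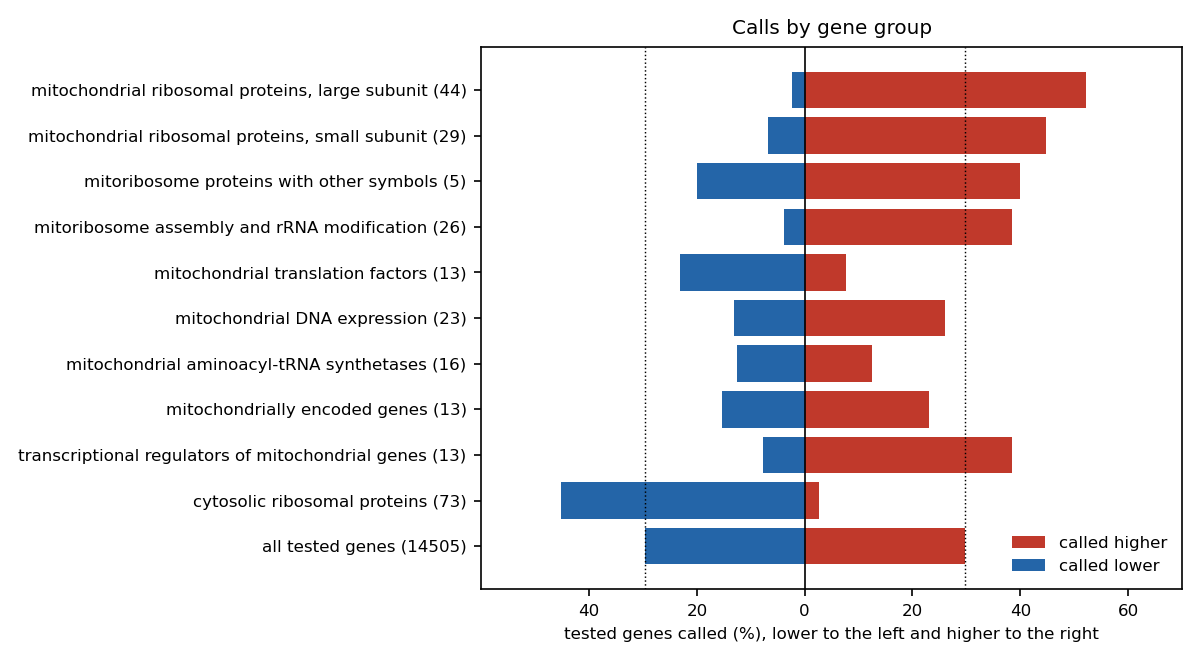
Share of tested genes (%) called higher (right, red) and lower (left, blue) in NPS-EMSC for each group, with the number of tested genes in brackets and dotted lines at the shares over all genes tested (29.7% and 29.5%). The bars of the large and small subunit reach 52.3% and 44.8% to the right and 2.27% and 6.90% to the left, and those of the cytosolic ribosomal proteins reach 2.74% to the right and 45.2% to the left.

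The proteins of the cytosolic ribosome offered the nearest comparison. Of 73 tested genes of this ribosome, 2 rose (Rpl18 and Rpl19, named after their values were seen) and 33 fell. Those were 2.74% and 45.2%, against 29.7% and 29.5% of all genes tested. The median log2 fold change of the cytosolic genes was -0.10. The mitochondrial ribosomal proteins had 36 higher, 3 lower and a median of 0.19. Rpl3 fell from 1042, 1016 and 1000 CPM to 563, 590 and 577 CPM (log2 fold change -0.82, SE 0.04, adjusted p = 2.52e-14), and Rpl10 and Rps12 had log2 fold changes of -0.59 and -0.59. In sum the cytosolic ribosomal proteins had 34138 to 34981 CPM in EMSC against 31164 to 31782 CPM in NPS-EMSC, so the sums of the 2 ribosomes lay in opposite directions in the same libraries. The sign of both medians held under each scaling tried: over all alternatives the median was 0.14 to 0.22 for the mitochondrial and -0.15 to -0.08 for the cytosolic ribosomal proteins. Without NPS-EMSC replicate 3, 1 cytosolic gene was higher in place of 2. No test of the difference between the 2 groups as sets was made, and many cytosolic ribosomal protein genes have near-identical copies among which reads may be split.

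**Figure D5:**
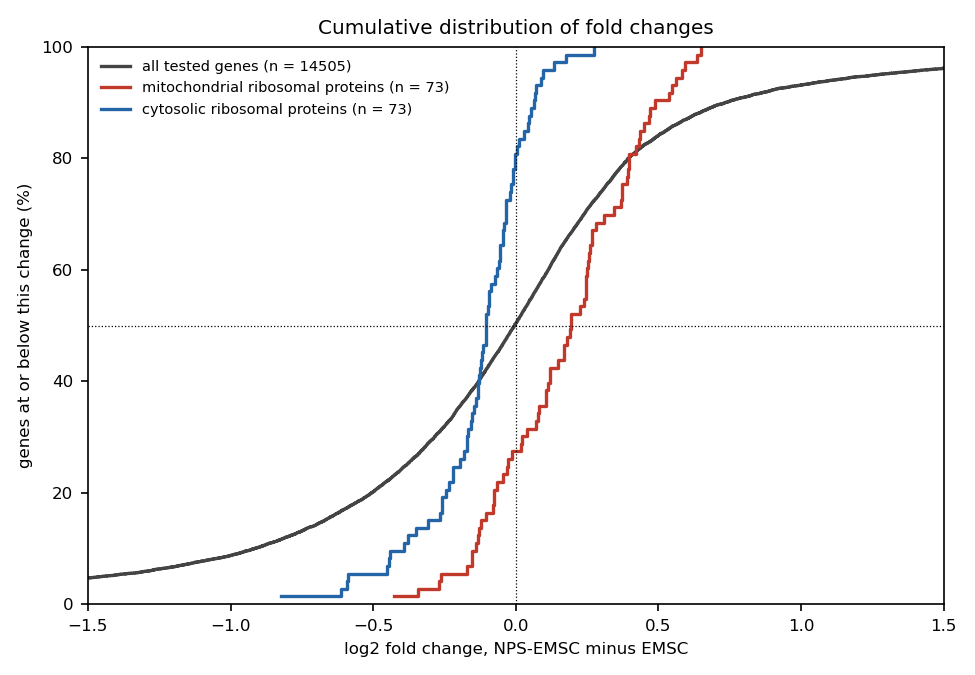
Cumulative share of genes (%) by log2 fold change, NPS-EMSC minus EMSC, for all 14505 genes tested, the 73 mitochondrial and the 73 cytosolic ribosomal protein genes, with the most extreme genes outside the axis. The curve of the mitochondrial ribosomal proteins crosses 50% at 0.19 and that of the cytosolic ribosomal proteins at -0.10, and both are steeper than the curve of all genes.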

How the data were processed

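Raw counts for 20653 genes were deposited by the authors, with FPKM values for the same genes in another table. The tools named in the submitters' processing notes are HTSeq, HISAT2, fastp, DESeq, StringTie and R 3.2.0. The build, the annotation and the strand setting were not given in the sources used here. Counts divided by FPKM and library total gave 1 length per gene within 0.1% for all 20653 genes, so the FPKM table is the deposited count table rescaled by length and total.

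Counts were tested with edgeR 4.0.16 in R 4.3.3 (TMM, glmQLFit with robust estimation, glmQLFTest) after filterByExpr (minimum count 10, minimum total 15), which left 14505 genes. Log2 fold changes use a prior count of 2, and SEs were obtained as the size of that value over the root of its F statistic. CPM values use TMM-scaled totals. A change beyond 1.2-fold was tested with glmTreat. Alternatives used limma 3.58.1 and DESeq2 1.42.0, other scalings, filters, FPKM, a replicate block and leaving out each library.

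Genes given by name were, in each subunit, the 5 largest increases and decreases among called members without overlap and with at least 5 CPM, the 3 highest and 2 lowest levels, untested members and members with known roles, and up to 4 genes of each related list by smallest p, 1 of which is not reported here. Members and lists were chosen with earlier results of these data known. Promoters, names and neighbours came from RefSeq (GRCr8), which may differ from the authors' build. Figures were drawn with matplotlib 3.10.9.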

Additional observations from a re-analysis of the deposited data

How the results depend on the processing

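The count of members called higher (36) ranged from 31 to 34 and that of members called lower (3) stayed at 3 when each library was left out in turn, with medians of 0.18 to 0.22 on the log2 scale. A minimum fold change of 1.2 left 14 higher and 1 lower. An adjusted p under 0.01 left 27 higher and 3 lower, and log2(FPKM + 1) without the filter gave 26 higher and 3 lower. Members called lower numbered 9 on log2(FPKM + 1) and on log2(FPKM + 0.1), and 5 with plain library totals, where the cause was not tested. With the replicate number as a block (replicate block), 36 were higher and 3 lower and the median was 0.19. Same-numbered libraries correlated at -0.0389 to 0.0460 in their deviations from the group means, and differently numbered ones at -0.0822 to 0.0512. Over the members alone these ranges were 0.0132 to 0.119 and -0.153 to 0.143. Not every library correlated best with its own number. With 3 libraries a group, these values cannot show whether same-numbered libraries share a batch or culture. The fitted values of 5 named members that did not pass lay near 0 and changed sign. Mrpl40 stood at -0.0148 with upper-quartile factors, -0.0177 on log2(FPKM + 1) with and without the filter, -0.0205 on log2(FPKM + 0.1), -0.0253 with plain totals and, leaving out 1 library, at -0.104 without EMSC replicate 3 and -0.0924 without NPS-EMSC replicate 1. Mrpl58 stood at -0.00236 on log2(FPKM + 1) with and without the filter, -0.00227 on log2(FPKM + 0.1), -0.00683 with plain totals and -0.0154 without EMSC replicate 3. Mrpl17 stood at 0.00489 without EMSC replicate 1 and 0.00117 without NPS-EMSC replicate 1, Mrps28 at 0.0258 without NPS-EMSC replicate 1, and Mrps6 at 0.0810, 0.0346 and 0.0191 without EMSC replicate 3, NPS-EMSC replicate 2 and NPS-EMSC replicate 3. Over the fits that leave out 1 library, the values ran from -0.0675 for Mrpl17, to 0.0950 for Mrpl40, from -0.111 for Mrps6, from -0.0947 for Mrps28 and to 0.120 for Mrpl58. Of 500 values of the 25 named tested members over 20 alternatives, 457 kept their direction and side of the threshold, 25 were no longer called and 18 changed sign. Searching only 100 bases before to 50 after the start left the motif shares at 5.08% (NRF1), 6.78% (its 8-letter parts), 32.2% (ETS) and 11.9% (YY1). With 3 libraries a group, the SE of a member's log2 fold change was 0.054 to 0.182.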
